A study of Macaca fuscata with 18 samples.

Results

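The genes PDGFRA, CSPG4, PTPRZ1, CSPG5, LHFPL3, GPR17, BCAS1 and ENPP6 mark oligodendrocyte precursor cells and their first steps towards myelin-forming cells. They were chosen by symbol, as 8 of the 19747 genes in the count table, and 11 of its 29686 transcript rows belong to them. For each gene the transcript with the highest mean level was used. The tissue was the SVZa, the subventricular zone along the striatal side of the anterior horn of the lateral ventricle, in Macaca fuscata aged 4 to 6 years. In 3 ischemic monkeys (MK503, MK507 and MK506) the brachiocephalic trunk and the left subclavian artery had been clipped for 18 min, which stops blood flow to the whole brain. In 3 sham monkeys (MK504, MK501 and MK508) the same operation was done without clipping. All 6 were killed on day 7 after surgery, and 3 adjacent fragments per monkey, numbered A1, A2 and A3, gave 18 RNA libraries. Neither the labels nor the methods say where in the row each numbered fragment lay.

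Oligodendrocytes arise throughout life from precursor cells that carry the PDGF receptor alpha and the proteoglycan NG2 on their surface. A precursor that leaves the cell cycle passes through a committed stage, in which GPR17 is transiently made, and then through a newly formed, premyelinating stage, in which BCAS1 and, in mice, ENPP6 are prominent, before it makes the major myelin proteins. The subventricular zone is one of the sources of such precursors, and damaged white matter is a known site of their recruitment. Several of these genes are not private to the lineage: PTPRZ1 and CSPG5 are also made by astrocytes and neural progenitors, CSPG4 by pericytes, and PDGFRA by fibroblasts of vessels and meninges.

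The 9 ischemia libraries held 18076257 to 74551396 counts (median 55634148) and the 9 sham libraries 19091839 to 57461603 (median 38019896). Counts of the 8 genes ranged from 41 for ENPP6 in one library to 20183 for PTPRZ1 in another, so the spread between monkeys and fragments, not counting error, set the precision. The libraries of each monkey were summed, since the monkey is the replicate, and the monkeys were compared as the pairs MK503 with MK504, MK507 with MK501 and MK506 with MK508. The labels give no pairs. They were taken from the numbers of the monkeys in a supplementary table, whose columns were assigned to monkeys by their values. The first pair stood apart: its 6 libraries had 1.09 to 1.27% MALAT1, a nuclear RNA, and all other libraries at most 0.235%, and 3 of the 6 had 5.16 to 5.59% POLE2. Choroid plexus RNA was highest in a sham library, the A2 fragment of MK501, where 6 choroid plexus markers summed to 72960 CPM. Among other sham libraries, A1 of MK504 had 4579 CPM, A3 of MK501 2578 CPM and A1 of MK508 1183 CPM. The lowest sham library had 44.97 CPM, and the ischemia libraries had 100.1 to 540.8 CPM. By monkey the sum was 1498, 21820 and 523 CPM in the sham monkeys MK504, MK501 and MK508. It was 169, 311 and 266 CPM in the ischemic monkeys MK503, MK507 and MK506. CPM are counts scaled to the size of the library, here with TMM factors, so the same gene can be compared between samples, but genes of different length cannot be compared with each other.

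ENPP6 and BCAS1, the genes of the newly formed stage, differed most between ischemic and sham monkeys, with log2 fold changes of 1.83 and 1.07 (standard errors 0.37 and 0.32, 3 monkeys each). GPR17, the gene of the committed stage, had 0.61, and the precursor surface genes PDGFRA, CSPG4 and PTPRZ1 had 0.37, 0.31 and 0.30. CSPG5 was at -0.03 and LHFPL3 at -0.36. No gene in the table passed an adjusted p under 0.05 between ischemic and sham monkeys (0% of 17522 tested, edgeR quasi-likelihood test with the pair as a block, lowest adjusted p 0.205), and the 8 genes had adjusted p-values of 0.205 to 0.944. At an unadjusted p under 0.05, 4 of the 8 were higher in ischemia (PDGFRA, GPR17, BCAS1 and ENPP6), against 8.38% of all genes tested, and 1 was lower (LHFPL3), against 8.04%. The median log2 fold change of the 8 genes was 0.34, beside -0.02 for all genes tested. In all 3 pairs 6 of the 8 were higher in the ischemic monkey, which held for 20.4% of all genes. In CSPG4 and GPR17 every ischemic monkey was above every sham monkey, as in 2.44% of all genes. Without the pair block ENPP6 alone of the 8 was higher by that threshold, against 0.633% of all genes, and 0 were lower, against 0.628%. With 1 monkey left out, ENPP6 was higher by it each time. With the pair as a block, the partner of the monkey left out no longer informs the difference. Leaving out either monkey of a pair is thus nearly the same check on the other pairs. The 8 genes gave 4 higher without MK503 (11.8% of all genes) or MK504 (12.1%), 2 without MK501 (4.27%), MK506 (6.36%) or MK508 (6.41%), and 1 without MK507 (3.95%), so the count over all genes moved the same way. LHFPL3 was lower by it without MK503 (10.1% of all genes) or MK504 (9.65%), but not without MK501 (3.23%), MK506 (4.96%), MK507 (3.61%) or MK508 (4.91%). In bulk tissue, fewer cells of a type and less RNA per cell cannot be told apart.

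**Figure D1:**
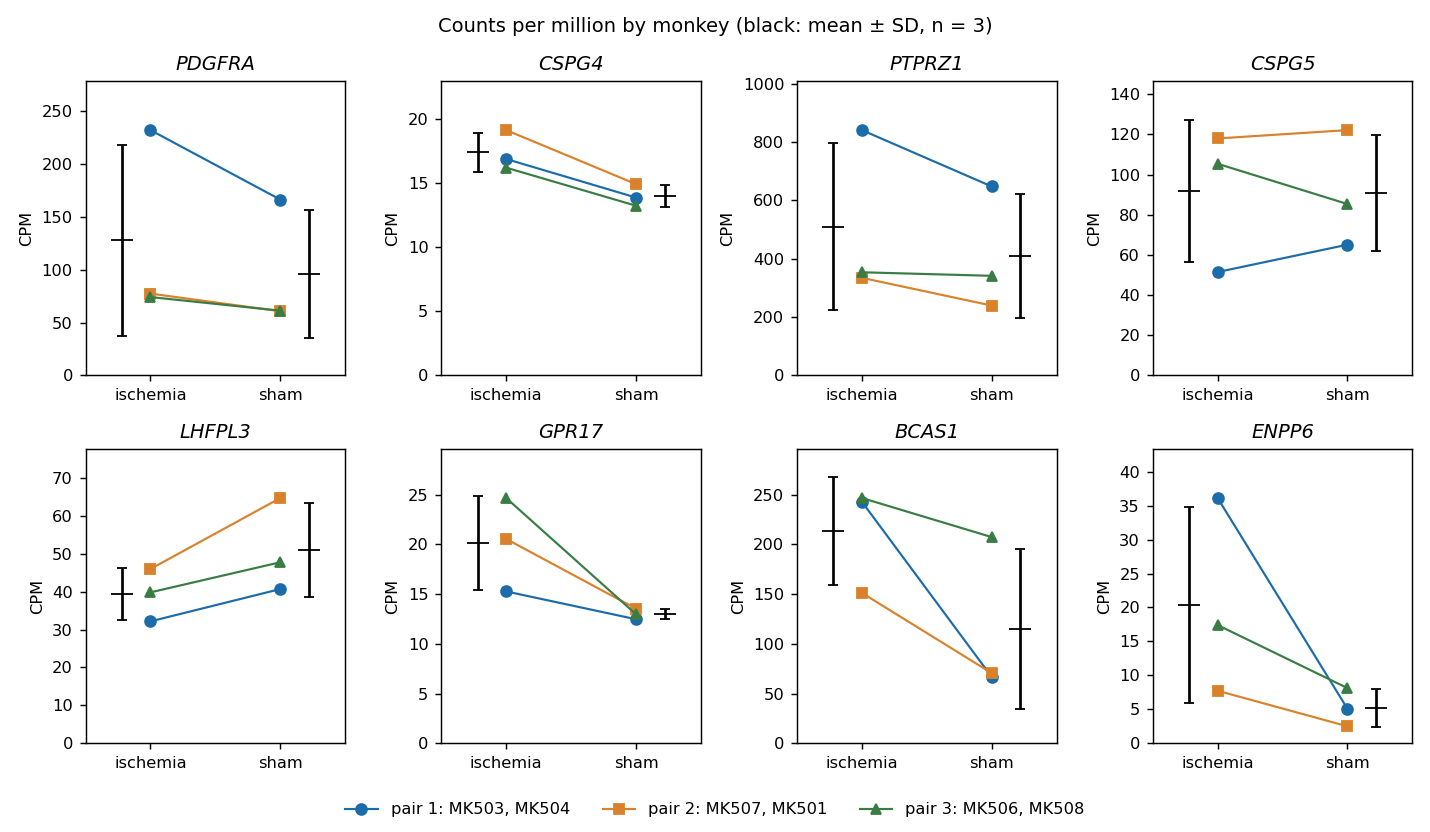
Level of each of the 8 genes (CPM, vertical axis from 0) in the 3 ischemic monkeys on the left and the 3 sham monkeys on the right of each panel. Lines join the monkeys of a pair and black bars are the mean and SD (n = 3). CSPG4 and GPR17 separate the groups, whereas PDGFRA and PTPRZ1 separate the first pair from the others.

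PDGFRA encodes the receptor tyrosine kinase through which PDGF-AA keeps precursors dividing. It stood at 232 CPM in MK503, 77.5 CPM in MK507 and 74.2 CPM in MK506 after ischemia, against 166 CPM in MK504, 60.8 CPM in MK501 and 61.3 CPM in MK508 after the sham operation. The groups overlapped because both monkeys of the first pair were far above the other 4. Within pairs the ischemic monkey was higher each time, by 0.48, 0.35 and 0.28 on the log2 scale, and the fitted log2 fold change was 0.37 (standard error 0.11, adjusted p 0.238 in edgeR). Group means were 128 ± 90.4 CPM in ischemia and 96.2 ± 60.9 CPM in sham (SD, n = 3 monkeys each). Without the A1 fragment of MK503, where PDGFRA reached 339 CPM, the log2 fold change was 0.25 and no longer passed an unadjusted p under 0.05.

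CSPG4, which encodes NG2, the chondroitin sulfate proteoglycan that names NG2 glia, was steady between the monkeys of a group. It stood at 16.9, 19.2 and 16.2 CPM in the ischemic monkeys MK503, MK507 and MK506, against 13.9, 14.9 and 13.2 CPM in the sham monkeys MK504, MK501 and MK508. The groups did not overlap. The log2 fold change was 0.31 (standard error 0.12, adjusted p 0.306), with nearly equal differences of 0.28, 0.36 and 0.29 in the 3 pairs.

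PTPRZ1 encodes a receptor tyrosine phosphatase with a chondroitin sulfate ectodomain that binds pleiotrophin, and in mice its loss speeds up oligodendrocyte differentiation. Its levels were 841, 334 and 353 CPM in MK503, MK507 and MK506, against 647, 239 and 341 CPM in MK504, MK501 and MK508. As for PDGFRA, the first pair was the highest in either group. The ischemic monkey was higher in 3 of 3 pairs, but by only 0.05 in the third, and the log2 fold change was 0.30 (standard error 0.15, adjusted p 0.374).

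CSPG5, or neuroglycan C, is a membrane proteoglycan with an EGF-like domain that can bind ErbB3. It was measured at 51.5, 118 and 105 CPM in MK503, MK507 and MK506, against 65.1, 122 and 85.3 CPM in MK504, MK501 and MK508. The groups overlapped fully, the pairs differed in sign (-0.34, -0.05 and 0.30), and the log2 fold change was -0.03 (standard error 0.15, adjusted p 0.944).

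LHFPL3 encodes a membrane protein of the LHFPL tetraspan family and is enriched in precursors. It was the only one of the 8 that was lower in every pair. The ischemic monkeys MK503, MK507 and MK506 had 32.1, 46.0 and 39.8 CPM, against 40.7, 64.7 and 47.7 CPM in the sham monkeys MK504, MK501 and MK508. The groups overlapped, since the sham monkey of the first pair was below the ischemic monkey of the second. The log2 fold change was -0.36 (standard error 0.11, adjusted p 0.240). Without the 3 libraries that held POLE2 reads it was -0.13.

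GPR17 encodes a G protein-coupled receptor related to the P2Y and cysteinyl leukotriene receptors, which in mice holds committed precursors back from maturing. It stood at 15.3, 20.6 and 24.7 CPM in the ischemic monkeys MK503, MK507 and MK506, against 12.5, 13.5 and 12.97 CPM in the sham monkeys MK504, MK501 and MK508. The sham monkeys lay within 1.09-fold of one another, whereas the ischemic monkeys, all above them, spread over 1.61-fold. The log2 fold change was 0.61 (standard error 0.17, adjusted p 0.229), with 0.29, 0.60 and 0.93 in the 3 pairs. GPR17 was also on the list of upregulated transcripts that the study drew from these same libraries, so its direction here is not independent evidence. Without the A1 fragment of MK503 the log2 fold change was 0.43 and did not pass an unadjusted p under 0.05.

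The count table lists 4 transcripts of GPR17, and 1 transcript for each of the other 7 genes. Fitted one by one, the GPR17 transcripts had log2 fold changes of 0.61, 0.63, 0.68 and 0.70, with adjusted p-values of 0.214 to 0.224 over 26951 transcripts. Of the 11 transcripts of the 8 genes 7 were higher at an unadjusted p under 0.05, against 8.98% of all transcripts. Transcripts of 1 gene share reads, so the 4 of GPR17 are not separate evidence.

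BCAS1 encodes a basic protein that marks early myelinating oligodendrocytes in mouse and human brain. It stood at 243, 151 and 247 CPM in MK503, MK507 and MK506, against 66.7, 70.5 and 207 CPM in MK504, MK501 and MK508. Of the sham monkeys, MK508 reached the ischemic range and the other 2 were below all ischemic monkeys. The pair differences were 1.87, 1.10 and 0.25, and the fitted difference had an adjusted p of 0.245. Without MK503 or MK504 the log2 fold change was 0.67 or 0.68, nearly the same check, since either leaves only the other pairs to compare. Means were 214 ± 54.1 CPM in ischemia and 115 ± 80.1 CPM in sham (SD, n = 3 each).

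ENPP6 encodes a choline-specific glycerophosphodiesterase and is, in mice, a marker of newly formed oligodendrocytes. It differed most among the 8 genes. Its levels were 36.1, 7.74 and 17.4 CPM in the ischemic monkeys MK503, MK507 and MK506, against 5.07, 2.50 and 8.13 CPM in the sham monkeys MK504, MK501 and MK508. The groups overlapped by 1 monkey: the lowest ischemic monkey, MK507, was just below the highest sham monkey, MK508. Within pairs the differences were 2.83, 1.62 and 1.10, and the fitted difference had an adjusted p of 0.205. The ischemic monkeys spread over 4.67-fold and the sham monkeys over 3.25-fold. In DESeq2, which called 3.77% of all genes as higher at an adjusted p under 0.05, ENPP6 and BCAS1 were the only 2 of the 8 genes called (adjusted p 1.56e-05 and 0.00955).

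**Figure D2:**
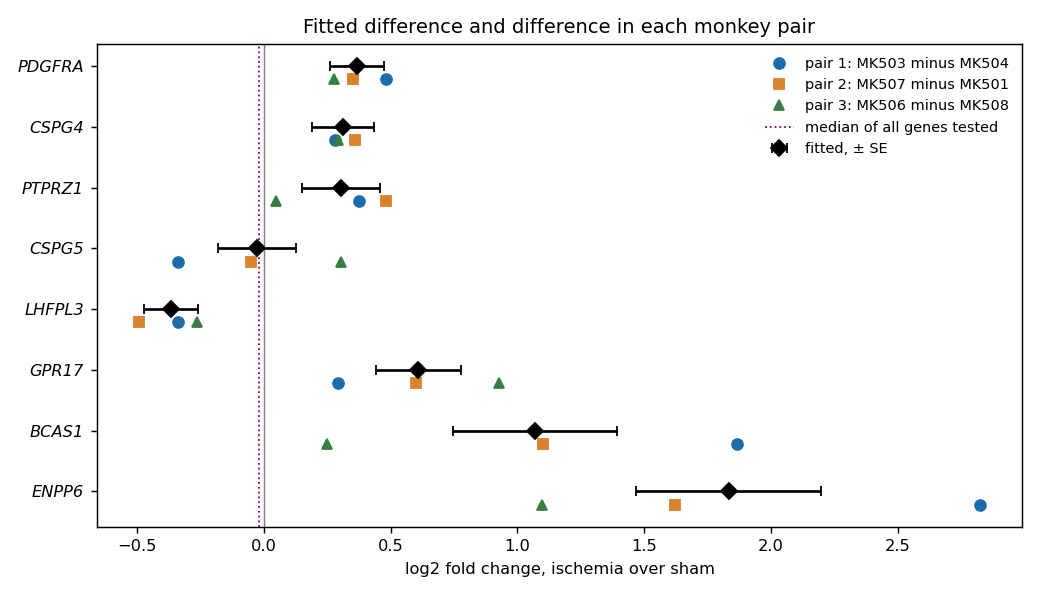
Log2 fold change of ischemia over sham (horizontal axis) for each gene, as fitted (diamonds, bars are 1 standard error) and in each monkey pair (coloured symbols). The dotted line is the median of all genes tested, -0.02. ENPP6 and BCAS1 lie farthest to the right and have the widest spread between pairs, and LHFPL3 alone lies left of 0 in every pair.

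BCAS1 and ENPP6 varied more between the fragments of a monkey than the other genes did, by up to 11-fold and 11.6-fold, against at most 2.73-fold. In the ischemic monkeys BCAS1 in A1, A2 and A3 was 503.5, 187 and 45.6 CPM in MK503, 171, 190 and 68.9 CPM in MK507, and 452, 227 and 73.7 CPM in MK506. In the sham monkeys it was 86.7, 48.5 and 63.1 CPM in MK504, 81.1, 72.7 and 60.2 CPM in MK501, and 97.5, 189 and 431 CPM in MK508. A3 was thus the lowest fragment in all 3 ischemic monkeys and in the sham monkey MK501, while the lowest was A2 in the sham monkey MK504 and A3 was the highest in the sham monkey MK508.

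ENPP6 was likewise lowest in A3 in all 3 ischemic monkeys. In the ischemic monkeys it stood in A1, A2 and A3 at 70.98, 31.9 and 6.24 CPM in MK503, at 10.6, 8.06 and 2.75 CPM in MK507, and at 36.2, 14.6 and 3.11 CPM in MK506. In the sham monkeys it stood at 7.41, 4.05 and 3.85 CPM in MK504, at 2.88, 3.15 and 1.69 CPM in MK501, and at 3.89, 5.44 and 19.9 CPM in MK508. A1 was above A2 and A2 above A3 in each ischemic monkey and in the sham monkey MK504, and A3 was also the lowest in the sham monkey MK501. The A3 fragment of MK508 was the highest sham library.

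The log2 differences within pairs were set out by fragment number. For BCAS1 the A1 fragments gave 2.54, 1.07 and 2.21, the A2 fragments 1.94, 1.39 and 0.26, and the A3 fragments -0.47, 0.20 and -2.55. For ENPP6 the A1 fragments gave 3.25, 1.85 and 3.19, the A2 fragments 2.95, 1.34 and 1.41, and the A3 fragments 0.69, 0.68 and -2.65. With A1 or A2 tissue the ischemic monkey was higher in all 3 pairs for both genes, and with A3 tissue the pairs differed in sign. Both passed an unadjusted p under 0.05 in the test of whether the ischemia effect differed between fragments, as did 10.0% of 16353 genes, but neither passed after adjustment (0.300 for both, edgeR with the monkey as a block). Without the A3 fragment of MK508 both again passed only the unadjusted threshold, as did 5.92% of genes (adjusted p 0.649 for BCAS1 and 0.529 for ENPP6). A fragment number is shared between monkeys only as a label, so these differences compare fragments of the same number and not a known position.

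Of the other genes, CSPG4 had the same signs in A1 and A2. It was higher in ischemia in 3 of 3 pairs in A1 (0.35 to 0.81) and in A2 (0.23 to 0.49), but in 1 of 3 in A3 (-0.62 to 0.28). PDGFRA was higher in 3 of 3 pairs in A1 (0.10 to 1.07), but in 2 of 3 in A2 (-0.02 to 0.73) and in A3 (-0.74 to 0.27), with 339 CPM in the A1 fragment of MK503 and 42.7 to 182 CPM over all sham libraries. GPR17 was higher in 3 of 3 pairs in A1 and in A3, and PTPRZ1 in 3 of 3 in A2. CSPG5 went the other way in A1, where all 3 pairs were negative (-0.48 to -0.004), and was positive in all 3 in A3 (0.06 to 0.51). LHFPL3 had pairs of either sign in each fragment.

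Across all 6 monkeys, with the monkey as a block, 0 of 16814 genes passed an adjusted p under 0.05 between A1, A2 and A3. At an unadjusted p under 0.05, 11.4% of genes passed and 0 of the 8 did (1925 genes in edgeR and 2376 in limma voom, where ENPP6 and PTPRZ1 passed as well). Without all A1 fragments 0 of the 8 passed that unadjusted threshold between ischemia and sham, where 2.49% of all genes were higher and 3.91% lower by it. The log2 fold changes were then 0.44 for BCAS1, 1.12 for ENPP6, 0.37 for GPR17 and 0.17 for PDGFRA. Without all A3 fragments they were 1.59, 2.40, 0.65 and 0.57, and ENPP6 passed the adjusted threshold (adjusted p 0.0421), as did 1.44% of all genes in the same direction. Without the A3 fragment of MK508 alone, BCAS1 was at 1.25 and ENPP6 at 2.11 (adjusted p 0.103 and 0.0704).

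**Figure D3:**
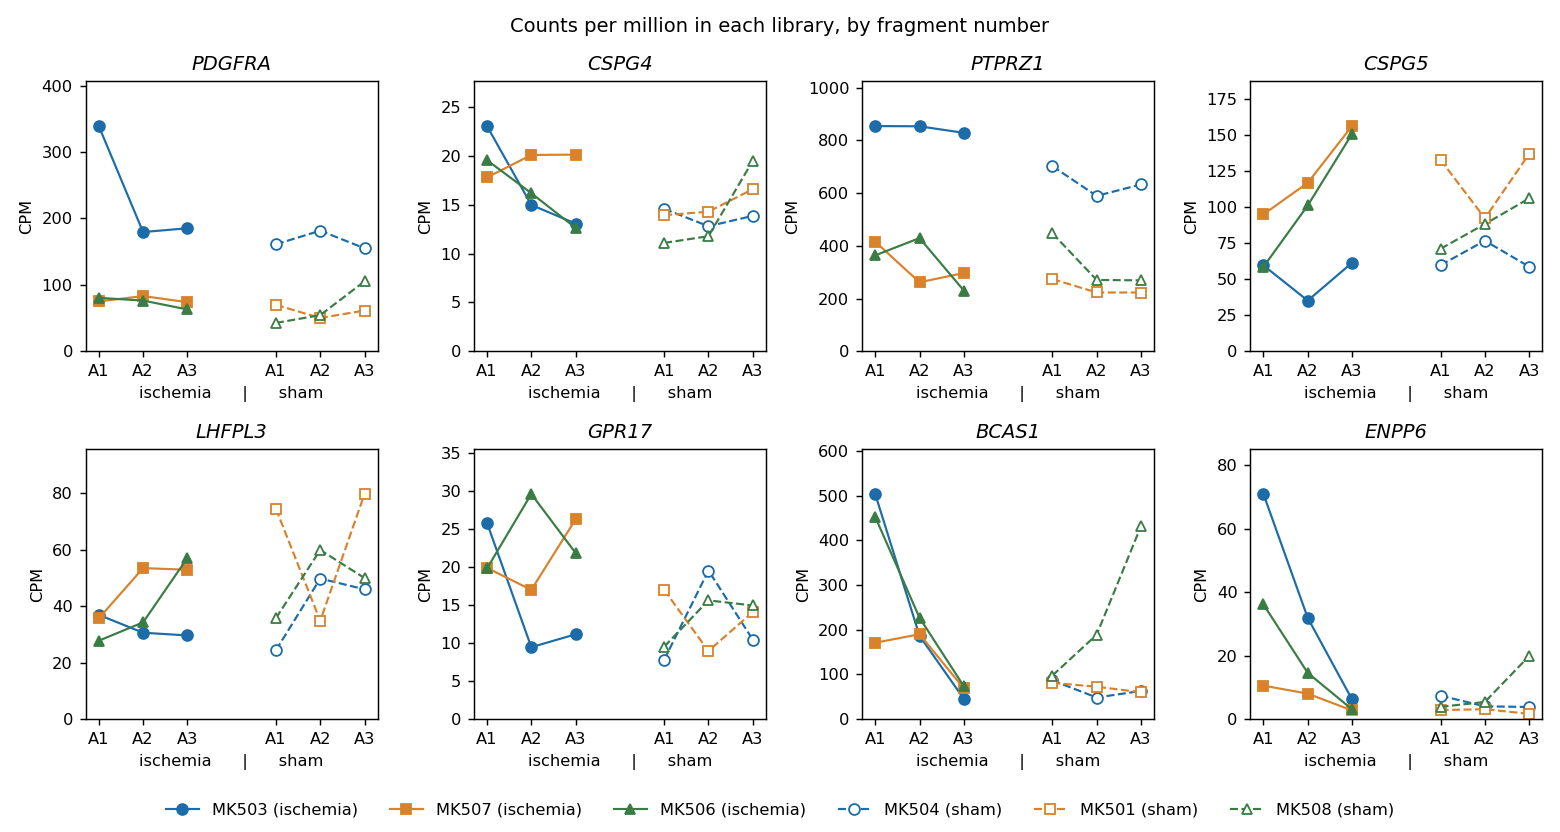
Level of each gene (CPM, vertical axis from 0) in each of the 18 libraries. Ischemic monkeys are on the left of each panel (filled symbols, solid lines) and sham monkeys on the right (open symbols, dashed lines), with A1, A2 and A3 in order, and a line joins the fragments of a monkey. BCAS1 and ENPP6 are lowest in A3 of all 3 ischemic monkeys and of the sham monkey MK501, as ENPP6 is in the sham monkey MK504, and highest in A3 of the sham monkey MK508.

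BCAS1 and ENPP6 moved with the genes of the oligodendrocyte lineage, those of mature myelin included, from library to library. The 14 myelin genes of a fixed list summed to 1702 to 48900 CPM in the ischemia libraries (median 17300) and to 1985 to 50140 CPM in the sham libraries (median 3996). The 50140 CPM were in the A3 fragment of MK508, the library in which BCAS1 and ENPP6 had their highest sham values. The 1702 CPM were in the A3 fragment of MK503, where BCAS1 was at its lowest. After the mean of each monkey pair was taken out, log2 levels over the 18 libraries correlated with the myelin sum at r = 0.993 for BCAS1 and 0.962 for ENPP6, a description only, since libraries of 1 monkey are not independent and share their depth. The difference between ischemia and sham was not taken out, so it too enters the coefficients. The coefficient was 0.800 for CSPG4, 0.748 for PDGFRA, 0.398 for PTPRZ1, 0.305 for GPR17, -0.303 for LHFPL3 and -0.450 for CSPG5. With the sum of 10 genes of newly formed oligodendrocytes the coefficients were 0.965 for BCAS1 and 0.966 for ENPP6, and with that of 21 precursor markers 0.934 and 0.932. The other genes differed in how far they followed the precursor sum. CSPG4 had 0.887, PDGFRA 0.873, GPR17 0.366, PTPRZ1 0.27, and LHFPL3 and CSPG5 each -0.286. All 14 myelin genes were detected in every library. What part the amount of myelinated tissue in a fragment has in the levels of BCAS1 and ENPP6 was not tested.

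**Figure D4:**
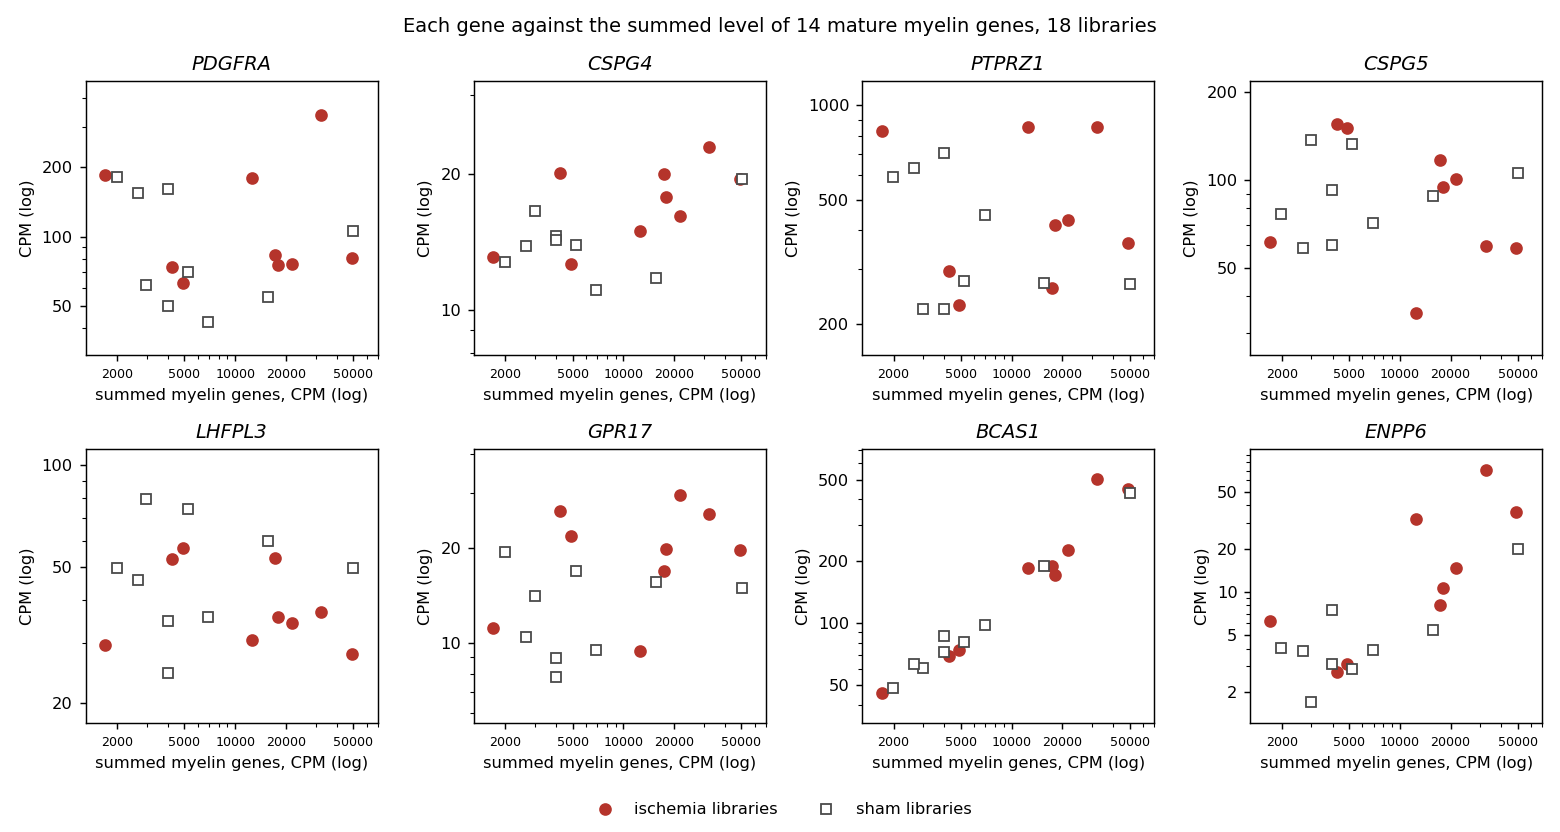
Level of each gene (CPM, log axis) against the summed level of 14 mature myelin genes (CPM, log axis) in the 9 ischemia libraries (filled circles) and the 9 sham libraries (open squares). BCAS1 and ENPP6 line up with the myelin sum, whereas GPR17, LHFPL3 and CSPG5 scatter.

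The genes nearest to each of the 8 were sought by the same correlation among 15771 genes with a mean of at least 1 CPM. Nearest to BCAS1 were CNP (r = 0.993), MBP (0.991) and PLEKHH1 (0.991), the first a myelin enzyme gene and the second the gene of myelin basic protein. Nearest to ENPP6 were CCDC50 (0.991), GAB1 (0.989) and RASSF2 (0.988). For CSPG4 they were TRPC4AP (0.961), CADM4 (0.941) and PI4KB (0.935), and for PDGFRA they were IMPAD1 (0.945), COPS7B (0.943) and PHACTR3 (0.942).

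GPR17 had the loosest neighbours, NCAM1 (0.887), NSD1 (0.879) and KHSRP (0.878). LHFPL3 was nearest to PPP2R2B (0.955), RAB11A (0.954) and SRPK1 (0.953), CSPG5 to PDE4A (0.953), CD99L2 (0.940) and UBE2Q1 (0.937), and PTPRZ1 to DEK (0.941), DAAM1 (0.939) and CHD6 (0.938). None of the 8 was among the 3 nearest of another. The closest pair were BCAS1 and ENPP6 (r = 0.958), followed by PDGFRA and CSPG4 (0.881), and the least alike were PTPRZ1 and LHFPL3 (-0.610). The 8 genes did not vary as 1 group over these libraries: CSPG5 and LHFPL3 went together (0.636) and ran against BCAS1 (-0.436 and -0.281) and ENPP6 (-0.501 and -0.449). Many genes outside the 8 were closer, since LHFPL3 had rank 2491 in closeness to CSPG5, and ENPP6 rank 130 in closeness to BCAS1.

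The rest of the lineage was read from lists of known genes, none of them including the 8. Of 21 further precursor markers 10 were higher in ischemia at an unadjusted p under 0.05 and 0 were lower, with a median log2 fold change of 0.38. Over all genes tested 8.38% were higher and 8.04% lower by this threshold, shares to be set beside the count of every list below. SOX10, the transcription factor gene of the whole lineage, was at 95.8 ± 41.1 CPM in ischemia and 49.2 ± 47.0 CPM in sham (log2 fold change 1.33, adjusted p 0.215). The versican gene VCAN (0.97) and NKX2-2 (1.17) were among the 10, as were OLIG1 (1.01) and OLIG2 (0.87), whereas PCDH15 (0.20), LUZP2 (-0.23) and MYT1 (0.08) were not.

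Of 10 genes of newly formed oligodendrocytes 8 were higher and 0 lower by the same threshold, with a median of 0.88. UGT8, which makes the galactolipids of myelin, was at 108 ± 63.4 CPM in ischemia and 30.6 ± 18.4 CPM in sham (1.93, adjusted p 0.205), and MYRF, the transcription factor gene that switches on myelin genes, had 1.63. TCF7L2 (-0.01) and TMEM163 (0.01) did not pass. Of the 14 mature myelin genes 12 were higher, with a median of 1.53, led by MOBP (2.14) and KLK6 (2.04). MBP was at 7992 ± 3551 CPM in ischemia and 4569 ± 5705 CPM in sham (1.59, adjusted p 0.276). The medians of the 3 lists thus ran from 0.38 in precursor markers to 1.53 in myelin genes. The precursor list also holds genes of the whole lineage, such as SOX10, so the lists do not separate stages cleanly. Of the 8 genes, the values of PDGFRA and CSPG4 lay near the first median and that of ENPP6 above the last.

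Among the ligands and relatives of PDGFRA no gene was higher and 2 of 6 were lower at an unadjusted p under 0.05. These were PDGFC (-0.62) and the receptor gene PDGFRB (-0.53), which pericytes carry. PDGFA, whose product is the main ligand of PDGFRA, was at 28.9 ± 4.06 CPM in ischemia and 21.2 ± 9.70 CPM in sham (0.55, adjusted p 0.375).

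Of 10 genes whose products bind PTPRZ1, 5 were higher and 0 lower. They were the contactin gene CNTN1 (0.98), the tenascin genes TNC (0.81) and TNR (1.53), and the adhesion molecule genes NFASC (0.69) and NCAM1 (0.46). The soluble ligand genes PTN, for pleiotrophin (0.01), and MDK, for midkine (-0.20), did not pass. Of 9 partners of CSPG4 and CSPG5, 4 were higher and 1 was lower. ERBB3, a receptor gene of the neuregulin family, was at 106 ± 40.2 CPM in ischemia and 39.4 ± 25.8 CPM in sham (1.53, adjusted p 0.205), LGALS3, the gene of galectin-3, had 0.73, and SDCBP, the gene of syntenin, had -0.39.

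Of the P2Y receptors, leukotriene receptors and leukotriene enzymes related to GPR17, 12 of 13 were tested, and 0 were higher and 1 was lower (P2RY11, -0.57). In the LHFPL family 0 of 5 genes and in the ENPP family 0 of 5 tested genes passed in either direction, with median log2 fold changes of -0.02 and -0.17. ENPP2, which encodes autotaxin, was at 271 ± 102 CPM in ischemia and 351 ± 122 CPM in sham (-0.38, adjusted p 0.668). Its pairs differed in sign (0.08, -1.57 and 0.32), and only the second was lower in ischemia. The ENPP family summed to 1591 CPM in the A2 fragment of MK501, the library with the most choroid plexus RNA. Its A1 and A3 fragments had 195 and 240 CPM. The part of choroid plexus in the level of ENPP2 was not tested. Of 8 genes that restrain oligodendrocyte differentiation in mice, 2 were higher, GPR37 (1.49) and ID2 (0.61), and 1 was lower, HES5 (-0.60). By the same threshold 8.38% of all genes tested were higher and 8.04% lower.

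**Figure D5:**
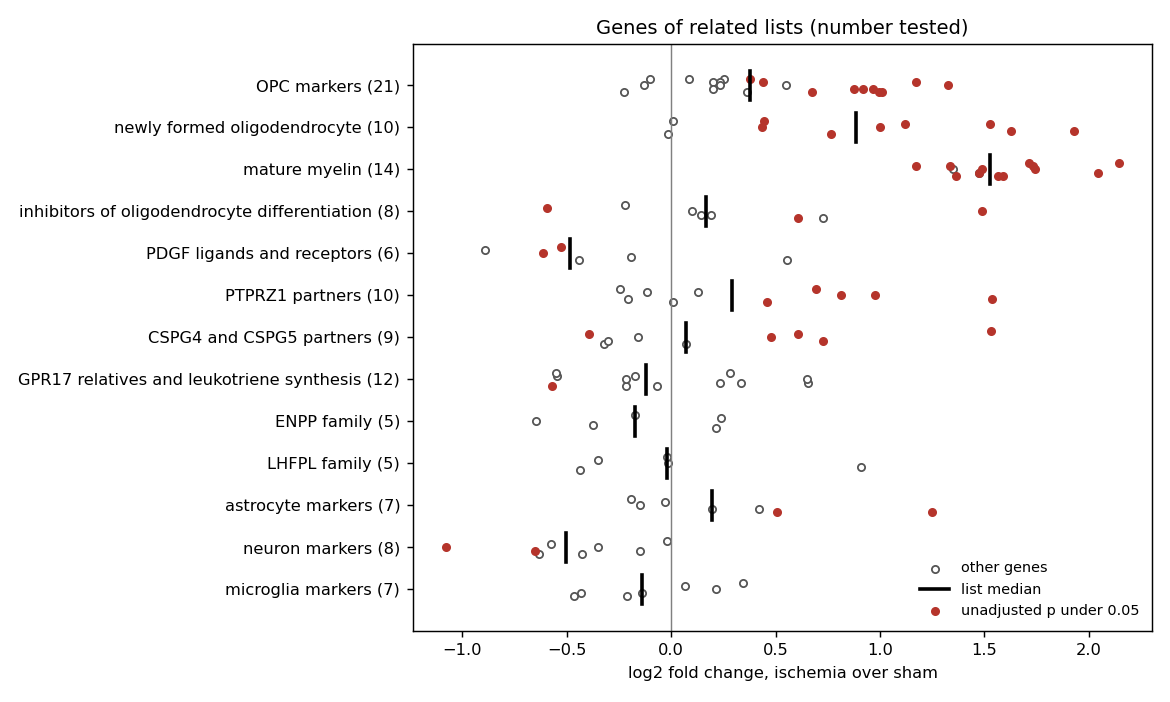
Log2 fold change of ischemia over sham (horizontal axis) for the tested genes of 13 lists (number tested in brackets). Filled points passed an unadjusted p under 0.05, open points did not, and black bars are list medians. The medians are 0.38 for precursor markers, 0.88 for newly formed oligodendrocytes and 1.53 for mature myelin.

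Markers of other cell types were present in all libraries and moved in part with the groups. Of 7 astrocyte markers 2 were higher, GFAP (5834 ± 1307 CPM in ischemia and 2594 ± 1237 CPM in sham, 1.25) and GJA1 (0.51). AQP4 (0.42) and ALDOC (0.20) did not pass, and SLC1A2 (-0.15), SLC1A3 (-0.03) and ALDH1L1 (-0.19) had negative values. The list median was 0.20. The list summed to 6167 to 19350 CPM in the ischemia libraries and to 5236 to 12460 CPM in the sham libraries. Of 8 neuron markers 2 were lower, PENK (-1.08) and SNAP25 (-0.65), and all 8 had negative values. The neuron sum was 1012 to 7698 CPM in ischemia libraries and 2303 to 9091 CPM in sham libraries. Over the 18 libraries LHFPL3 and CSPG5 correlated with it at r = 0.797 and 0.746, BCAS1 and ENPP6 at -0.618 and -0.760, and PTPRZ1 at -0.607, as descriptions. With the astrocyte sum the coefficients were 0.690 for ENPP6, 0.637 for PTPRZ1, 0.556 for BCAS1, -0.621 for LHFPL3 and -0.699 for CSPG5. The part of astrocytes and neurons in these 5 genes was not tested.

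Markers of pericytes and fibroblasts, cells that also carry CSPG4 and PDGFRA, summed to 156 to 323 CPM in ischemia libraries and to 167 to 618 CPM in sham libraries. Of these 9 markers 0 were higher and 1, ACTA2, was lower (-1.33), against 8.38% and 8.04% of all genes tested. In the A2 fragment of MK501, where that sum was highest, PDGFRA was at 50.1 CPM and CSPG4 at 14.3 CPM, both within the range of the other sham libraries. This is 1 library, the one with the most choroid plexus RNA. The part of pericytes and fibroblasts in the levels of CSPG4 and PDGFRA was not tested. Of 7 microglia markers 0 passed in either direction. With their sum the coefficients were -0.609 for CSPG5, -0.443 for GPR17, 0.441 for BCAS1 and 0.380 for ENPP6. The rest of the 8 genes had -0.259 to 0.075. Of 6 genes of dividing cells 1 was higher (MCM2, 0.41), against 8.38% of all genes tested. Positive values were found for 5 of the 6, with a list median of 0.47. TOP2A (0.89), MKI67 (0.67), CDK1 (0.52), PCNA (0.19) and CCNB1 (-0.02) did not pass. TOP2A, MKI67 and CDK1 were low, at means of 5.67, 2.87 and 2.22 CPM over the 18 libraries. The largest pair differences of TOP2A and MKI67 were in the third pair (2.02 and 2.11). Of 6 choroid plexus markers 4 were lower and 1 was higher. With their sum, which was higher in every sham monkey, the coefficient of GPR17 was -0.664, its largest in size with any list compared. It was -0.577 for LHFPL3, -0.491 for PDGFRA, -0.440 for CSPG5 and -0.265 for CSPG4. BCAS1, ENPP6 and PTPRZ1 had -0.133, -0.080 and 0.019. The part of choroid plexus in these levels was not tested. Without the A2 fragment of MK501 PDGFRA, GPR17, BCAS1 and ENPP6 were again the 4 genes higher and LHFPL3 the 1 gene lower at an unadjusted p under 0.05, against 9.55% and 9.89% of all genes.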

How the data were processed

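Fragments gave TruSeq libraries, sequenced as single 50 bp reads. Base calling used CASAVA (1.8.2) and quality control FastQC (0.10.0). The authors mapped the reads with TopHat2 (2.0.8) on the Macaca mulatta assembly and counted them over RhesusBase gene models with bedtools (2.16.2) at its defaults, which ask for no match of strand. The deposited values are raw read counts per human RefSeq transcript, not normalized. Which bedtools command was run, and so how reads shared by transcripts were counted, is not given in the sources used here.

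Groups came from the labels. The authors' methods name a paired test but not the pairs, which were read from the column numbers of a supplementary table. Those columns carry no monkey names and were assigned to monkeys by their values (median absolute log2 difference 0.0011 to 0.0043 over 1219 rows, against at least 0.188 for any other monkey). That equal numbers mark a pair is assumed. Across 17522 genes, the departures of paired monkeys from the means of their groups correlated at r = 0.874, 0.767 and 0.650 (-0.786 to 0.622 for other combinations). Libraries of 1 monkey were not copies (chi-square over degrees of freedom 10.9 to 662) and were summed. Counts were filtered with filterByExpr, scaled by TMM and tested with the robust quasi-likelihood F test of edgeR (4.0.16) in R (4.3.3), adjusted after Benjamini and Hochberg over all genes tested. A prior count of 2 entered log2 values. Alternatives used DESeq2 (1.42.0), limma voom (3.58.1), other scalings and fewer libraries. The fit was tested on simulated data.

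The 8 genes, the lists and the tests were chosen with earlier results of these data known. All 157 list entries matched a symbol. Named are the 8, examples among the 3 highest of each list and those with an unadjusted p under 0.05, the 3 nearest to each of the 8, and some members picked after their values were seen. No genome was used.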

Additional observations from a re-analysis of the deposited data

Results flagged for a closer look

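In the ischemia libraries, PDGFRA (339.1 CPM) and ENPP6 (70.98 CPM) in the A1 fragment of MK503 lay far from the other 8 libraries. In the sham libraries, BCAS1 (431.3 CPM) and ENPP6 (19.91 CPM) in the A3 fragment of MK508 did. The gap to the next library was 0.557, 0.510, 0.633 and 0.686 of the group's range, above Dixon's critical value for 9 libraries. Chance flags about 1 in 20 groups, libraries of 1 monkey are not independent, and 16 groups were looked at.

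CSPG5 was lower in ischemia in all 3 pairs in A1 (mean log2 difference -0.256) and higher in all 3 in A3 (0.254). The test of whether its ischemia effect differed between fragments gave an adjusted p of 0.835 in edgeR.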

How the results depend on the processing

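In the comparison of ischemia with sham, edgeR called 0 genes at an adjusted p under 0.05, while an unadjusted p under 0.05 was reached by 1469 higher and 1409 lower genes. DESeq2 called 661 higher and 426 lower genes, and 1811 transcripts against 0 in edgeR. Treating the 18 libraries as 9 against 9 called 339 and 553, leaving out the A3 fragments 248 and 34, and leaving out the A2 fragments 1 and 0. Leaving out each monkey in turn called 0 to 7 higher and 0 to 8 lower genes. With library totals in place of TMM, 64.2% of the genes at an unadjusted p under 0.05 were higher, against 51.0% with TMM.

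By the unadjusted threshold, 4 of the 8 genes were higher and 1 was lower. Without the pair block this was 1 (ENPP6) and 0, and without the A1 fragments 0 and 0. Lower genes were also 0 with 9 against 9 libraries, without the A2 fragments and without the libraries with POLE2 reads. Without the A1 library of MK503, an alternative chosen after the data were seen like those without the A2 library of MK501 and the A3 library of MK508, 2 were higher. Leaving out each monkey in turn, and so its pair, left 1 to 4 higher (1 without MK507) and 0 to 1 lower. Between fragments, 0 of the 8 passed an unadjusted p under 0.05, but 2 did in limma voom, 1 with library totals, 1 with transcripts summed, 2 without the A3 library of MK508, 2 without the A1 library of MK503, and 0 to 2 without each monkey.

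The log2 fold changes of the 8 kept their sign in 21 alternatives, except that of CSPG5. It was 0.012 without the pair block, 0.0307 with library totals, 0.0183 without A1, 0.049 without A2, 0.0825 without the libraries with POLE2 reads, 0.00456 without the A3 library of MK508, and -0.192 to 0.133 without each monkey. BCAS1 spanned 0.44 to 1.59, lowest without the A1 fragments, and was 0.67 without MK503. ENPP6 spanned 1.12 to 2.40. The cause of these shifts was not tested.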
